A study of Mus musculus with 9 samples.

Results

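The genes described here are 10 chemokine ligands of mouse splenic dendritic cells: Ccl3, Ccl4, Ccl5, Ccl6, Ccl9, Ccl17, Ccl22, Cxcl9, Cxcl16 and Cx3cl1. They were taken by symbol out of the 24054 genes in the files, and all 10 were among the 14452 genes tested. RNA was sequenced from 9 libraries, 3 in each of 3 groups sorted from spleen. All mice were C57BL/6 of the genotype Clec9a-Cre/Cre Rosa-tdTomato/tdTomato, in which a cell that has expressed Cre from the Clec9a locus, and all of its progeny, carry the fluorescent protein tdTomato (TOM). The groups were young TOM+ cDC2 and young TOM- DC2 from pooled spleens at the age of 8 days, and adult TOM+ cDC2 from mice of 9 weeks (replicate 1) or 8 weeks (replicates 2 and 3). Every sample was gated on live, single, non-autofluorescent cells with MHCII, CD11c and CD11b. There was no adult TOM- group, so age and TOM label both differ between young TOM- DC2 and adult TOM+ cDC2.

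Chemokines are small secreted or membrane-anchored proteins that steer leukocytes along concentration gradients through G protein-coupled receptors. CCL3, CCL4 and CCL5 are inflammatory ligands that draw monocytes and T cells, and CCL3 and CCL5 bind CCR1, which in the mouse is also the receptor of CCL6 and CCL9. CCL17 and CCL22 share the receptor CCR4, CXCL9 draws activated T cells through CXCR3, and CXCL16 and CX3CL1 are made as membrane proteins whose receptors are CXCR6 and CX3CR1. Dendritic cells use such ligands to bring T cells and other leukocytes to themselves.

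Between 12783252 and 22809401 reads fell on genes in each library. All 10 cDC2 markers examined, among them Itgax, Zbtb46 and Sirpa, were detected in each group, with a summed level of 58653 to 65940 TPM (a level scaled to transcript length and library size) in young and 92501 to 95769 TPM in adult libraries. Cd74 and H2-Ab1 made up nearly all of it. The other 8 markers summed to 1649 to 2041 TPM in young and 1881 to 2184 TPM in adult libraries. Of the 10, 6 passed higher in adult cells and 3 (Sirpa, Itgam and Clec10a) higher in young cells in each age comparison. The 6 included Irf4 against young TOM+ cDC2 only and Zbtb46 against young TOM- DC2 only. The summed level of 7 neutrophil markers was 32.8 TPM in young TOM- DC2 replicate 1 and at most 1.01 TPM in the other 8 libraries. That library also held the lowest level in its group for all 10 ligands. It and young TOM+ cDC2 replicate 1 carry the same number in their deposited names. Where leaving out both changed whether a ligand passed, this is given beside its values. That setting was added after the data were seen. Leaving out young TOM- DC2 replicate 1 raises the mean of its group for every ligand, so passes gained that way higher in young TOM- DC2 are not separate support.

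Together the 10 ligands summed to 1554 to 1661 TPM in young TOM+ cDC2, 1840 to 2573 TPM in young TOM- DC2 and 3366 to 3981 TPM in adult TOM+ cDC2. Ccl3 and Ccl4 made up 57.5 to 70.2% of that sum. By mean TPM over the 9 libraries, Ccl4 stood at the 99.4th percentile of the tested genes, Ccl5 at the 98.2nd and Ccl3 at the 97.6th. Cxcl16 and Ccl6 followed at 92.9 and 91.4, Ccl9 at 71.7 and Ccl22 at 59.7. Cxcl9 at 40.02, Ccl17 at 31.8 and Cx3cl1 at 27.0 were low. In bulk RNA, fewer cells that make a ligand and less of its RNA per cell cannot be told apart.

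**Figure D1:**
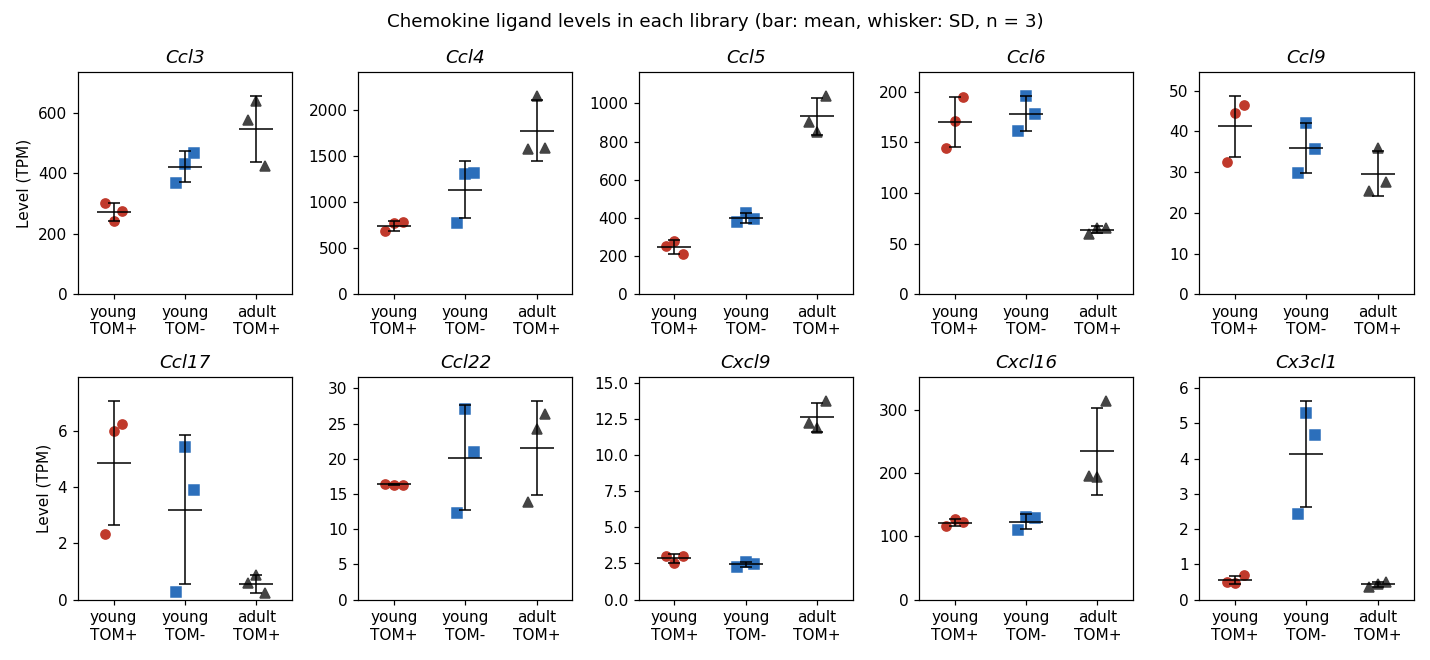
Level of each chemokine ligand in TPM (linear axis from 0) in the 3 libraries of each group; points are libraries, the long bar is the mean and the whisker the SD (n = 3). The adult libraries lay above all young libraries for Ccl4, Ccl5, Cxcl9 and Cxcl16 and below them for Ccl6, and the young TOM- DC2 libraries lay above all others for Cx3cl1.

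The genes lie in 2 neighbourhoods and at 2 single positions in GRCm38. On chromosome 11, Ccl5 (chr11:83525778-83530518, minus strand), Ccl9 (chr11:83572919-83578636, minus), Ccl6 (chr11:83587882-83593087, minus), Ccl3 (chr11:83647844-83649355, minus) and Ccl4 (chr11:83662584-83664683, plus) spanned 138.9 kb. On chromosome 8, Ccl22 (chr8:94745590-94751699), Cx3cl1 (chr8:94772009-94782427) and Ccl17 (chr8:94810453-94812036), all on the plus strand, spanned 66.4 kb. Cxcl16 (chr11:70453983-70459984, minus) and Cxcl9 (chr5:92321347-92328079, minus) stood apart. Ccl6 overlaps the gene E230016K23Rik without sharing exonic bases, whereas Cxcl16 shares 552 exonic bases with Zmynd15 on the opposite strand. The library kit keeps no strand, so reads in those 552 bases could belong to either gene.

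The bases before the start of 2 ligands that were higher in adult cells (Cxcl9, Ccl3) and 2 that were higher in young TOM+ cDC2 (Ccl6, Ccl17) are shown to set their sequences side by side. Each is the 250 bases before the RefSeq start in GRCm38.p6, written 5′ to 3′ on the gene's strand, and capitals mark matches to the motifs searched.
Cxcl9, chr5:92328080-92328329, minus strand: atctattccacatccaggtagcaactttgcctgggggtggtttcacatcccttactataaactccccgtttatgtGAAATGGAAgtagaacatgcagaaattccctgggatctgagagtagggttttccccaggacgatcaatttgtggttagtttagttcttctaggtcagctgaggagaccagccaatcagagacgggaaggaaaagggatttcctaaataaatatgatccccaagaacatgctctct
Ccl3, chr11:83649379-83649628, minus strand: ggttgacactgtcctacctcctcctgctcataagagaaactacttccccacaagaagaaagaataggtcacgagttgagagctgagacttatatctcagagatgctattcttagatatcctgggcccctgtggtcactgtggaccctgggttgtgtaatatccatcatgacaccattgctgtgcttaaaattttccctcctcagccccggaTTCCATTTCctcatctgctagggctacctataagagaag
Ccl6, chr11:83593088-83593337, minus strand: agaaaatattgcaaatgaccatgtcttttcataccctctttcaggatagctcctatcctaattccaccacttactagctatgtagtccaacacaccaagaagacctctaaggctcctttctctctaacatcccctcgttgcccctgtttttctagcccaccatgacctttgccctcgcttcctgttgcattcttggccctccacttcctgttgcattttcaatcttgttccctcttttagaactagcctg
Ccl17, chr8:94810203-94810452, plus strand: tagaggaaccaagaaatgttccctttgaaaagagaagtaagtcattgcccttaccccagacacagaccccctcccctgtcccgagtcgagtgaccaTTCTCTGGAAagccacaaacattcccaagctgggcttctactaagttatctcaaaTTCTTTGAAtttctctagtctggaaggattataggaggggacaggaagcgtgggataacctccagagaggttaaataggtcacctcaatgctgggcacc

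Such windows were found in RefSeq for 7 of the 10 ligands (the 4 above, Ccl9, Ccl22 and Cx3cl1). Both strands were searched for the interferon response core GAAANNGAA, the STAT motif TTCNNNGAA (GAS), the STAT6 motif TTCNNNNGAA, the AP-1 motif TGANTCA and the NF-kB consensus. The interferon core was found at 175 to 167 bases before the start of Cxcl9 and, on the other strand, at 39 to 31 bases before that of Ccl3. Ccl17 held the STAT6 motif at 154 to 145 and the GAS motif at 99 to 91 bases. Both read as a match on either strand. Ccl9 held an AP-1 motif at 53 to 47 and the NF-kB consensus, on the other strand, at 35 to 26 bases. None of these letters was found in the windows of Ccl6, Ccl22 and Cx3cl1. Among 32851 promoters, windows of the same length held the interferon core in 7.13%, GAS in 7.02%, AP-1 in 6.75%, the STAT6 motif in 5.85% and the NF-kB consensus in 3.9%, so the matches are descriptions of sequence and not sites of binding.

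The first question was how young and adult TOM+ cDC2 differ in the ligands they transcribe. Of the 10, 5 were higher in adult TOM+ cDC2 (Ccl3, Ccl4, Ccl5, Cxcl9 and Cxcl16), 2 were higher in young TOM+ cDC2 (Ccl6 and Ccl17) and 3 did not pass (Ccl9, Ccl22 and Cx3cl1). A gene passed at an adjusted p under 0.05 in edgeR, and all 7 also differed by more than 1 on the log2 scale in that fit. In limma on log2(TPM + 1), Ccl3 (-0.99) and Cxcl16 (-0.90) passed but were within 1. Among the 14452 genes, 19.5% passed with the higher level in adult cells and 21.0% with the higher level in young TOM+ cDC2. With the log2 limit these shares were 6.86% and 5.96%. The median log2 fold change (young over adult) of the 10 ligands was -0.80, beside 0.05 over all genes tested.

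Young TOM- DC2 against adult TOM+ cDC2 gave 5 ligands higher in adult (again Ccl3, Ccl4, Ccl5, Cxcl9 and Cxcl16) and 2 higher in young cells (Ccl6 and Cx3cl1). Here 16.9% of all genes passed higher in adult and 19.4% higher in young TOM- DC2. With the log2 limit, 3 ligands were higher in adult (Ccl5, Cxcl9 and Cxcl16) beside 4.78% of all genes, and the same 2 were higher in young TOM- DC2 beside 6.50%. The median was -0.38 for the ligands and 0.07 for all genes. Both age comparisons use the same 3 adult libraries, so they are not separate evidence.

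Between the young groups, Ccl5 and Cx3cl1 were higher in TOM- DC2, beside 1.47% of all genes in that direction. Cx3cl1 alone of the 10 exceeded the log2 limit, beside 1.16% of all genes. No ligand passed with a higher level in young TOM+ cDC2, a direction in which 0.125% of all genes passed and 0.0208% passed with the log2 limit. At an unadjusted p under 0.05 there was none either, and DESeq2 gave 0 as well. In the direction of TOM- DC2, DESeq2 passed 3 ligands, as Ccl3 joined Ccl5 and Cx3cl1, beside 308 of 13605 genes. The median was -0.16 for the ligands and 0.00 for all genes. With the number in the deposited names as a block over all 9 libraries, 4 ligands passed higher in TOM- DC2, as Ccl3 and Ccl4 joined Ccl5 and Cx3cl1. The block also raised the passes in that direction over all 14452 genes, from 213 to 627. In that block, adult replicates 1 and 2 share the numbers of young replicates 2 and 3. Adult replicate 3 has a number of its own and drops out of the comparisons with adults.

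**Figure D2:**
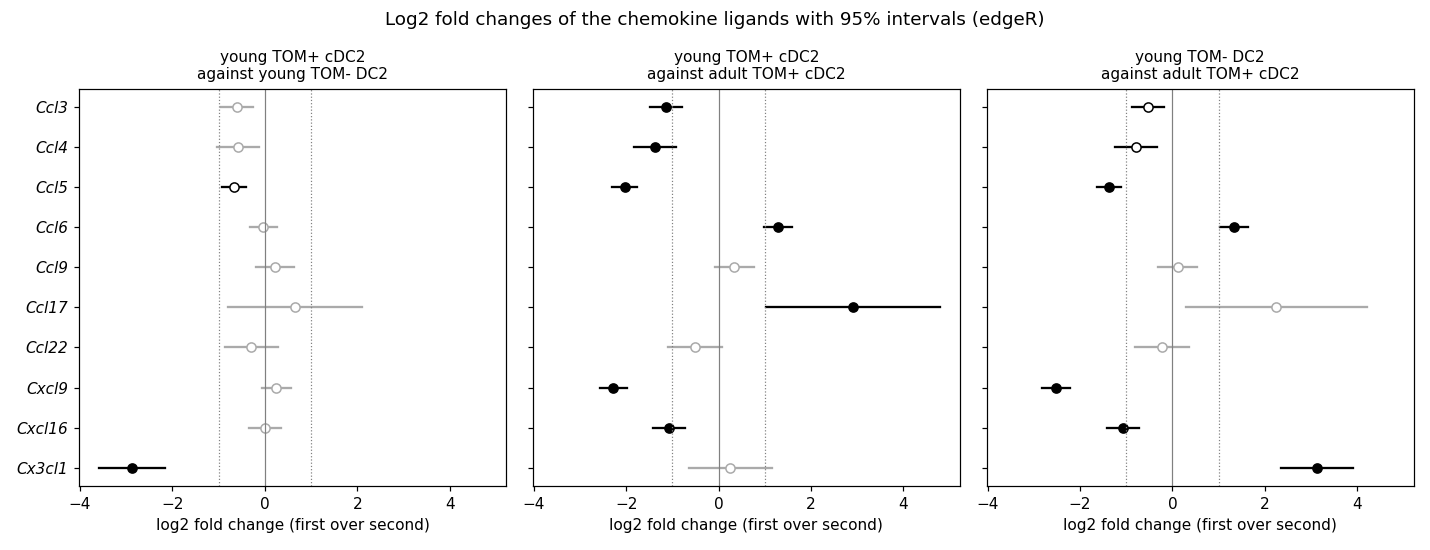
Log2 fold change (first group over second) of each chemokine ligand in the 3 comparisons, with 95% intervals from edgeR. Black marks passed at an adjusted p under 0.05, filled marks also exceeded 1 on the log2 scale (dotted lines), and grey marks did not pass; 7 of 10 are filled in the middle panel, 5 in the right and 1 in the left.

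Ccl5 attracts T cells and monocytes. Its level was 253, 279.6 and 209.6 TPM in young TOM+ cDC2, 377.8, 425 and 397 TPM in young TOM- DC2, and 903, 853 and 1041 TPM in adult TOM+ cDC2. The 3 groups did not overlap: young TOM+ cDC2 had the lowest level, young TOM- DC2 the middle and adult cells the highest. Ccl5 was 4.10-fold higher in adult TOM+ cDC2 than in young TOM+ cDC2 (log2 fold change -2.04, SE 0.121, adjusted p = 3.3e-07). Against young TOM- DC2 it was 2.58-fold higher in adult cells (log2 fold change -1.37, SE 0.118, adjusted p = 5.2e-06). Young TOM- DC2 exceeded young TOM+ cDC2 1.59-fold (log2 fold change -0.67, SE 0.118, adjusted p = 0.0109), and in each of the 3 pairs of libraries with a shared number TOM- DC2 had the higher level. That last difference did not pass without young TOM+ cDC2 replicate 3 (adjusted p = 0.0671) or without young TOM- DC2 replicate 2 (adjusted p = 0.0552).

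Ccl4 (MIP-1 beta) was the most abundant of the 10. It was measured at 684, 771 and 785.5 TPM in young TOM+ cDC2, at 779, 1309 and 1316 TPM in young TOM- DC2, and at 1578, 2157 and 1593 TPM in adult TOM+ cDC2. All adult libraries lay above all young ones, and young TOM- DC2 replicate 1 lay within the range of young TOM+ cDC2. The difference to adult cells was -1.37 on the log2 scale for young TOM+ cDC2 (SE 0.210, adjusted p = 0.000256) and -0.79 for young TOM- DC2 (SE 0.207, adjusted p = 0.0104). Without adult replicate 2 the latter missed the threshold (adjusted p = 0.0548). Between the young groups the difference was -0.58 (95% interval -1.03 to -0.13) and did not pass (adjusted p = 0.305). It passed with the block (adjusted p = 0.00434) and without both young libraries numbered 1 (adjusted p = 0.0214). The second setting leaves out the young TOM- DC2 library that was lowest of its group for all 10 ligands, so it is not separate support.

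Ccl3 (MIP-1 alpha), the neighbour of Ccl4, was at 300.4, 241.8 and 274 TPM in young TOM+ cDC2. In young TOM- DC2 it was at 366, 429.6 and 468 TPM, and in adult TOM+ cDC2 at 577, 637 and 425 TPM. Young TOM+ cDC2 lay below both other groups, while adult replicate 3 fell within the range of young TOM- DC2. Ccl3 was 2.19-fold higher in adult TOM+ cDC2 than in young TOM+ cDC2 (log2 fold change -1.13, SE 0.160, adjusted p = 0.000141). The difference between young TOM- DC2 and adult cells was -0.53 (SE 0.158, adjusted p = 0.0210). It missed the threshold without young TOM- DC2 replicate 1 (adjusted p = 0.0678), adult replicate 1 (adjusted p = 0.0752) or adult replicate 2 (adjusted p = 0.0979), and in limma on log2(TPM + 1) (adjusted p = 0.0925). The young groups differed in Ccl3 by -0.61 (95% interval -0.95 to -0.26, adjusted p = 0.101). With the block the adjusted p was 0.00028, and without both young libraries numbered 1 it was 0.0372. This difference passed in 7 of 20 alternatives, among them DESeq2, the fit with no filter on low counts and the 2 groups alone.

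Ccl6 and Ccl9 lie next to each other on chromosome 11, between Ccl5 and Ccl3, and both bind CCR1. Ccl6 was at 145, 171 and 195 TPM in young TOM+ cDC2, at 161, 196 and 178 TPM in young TOM- DC2, and at 60, 65.8 and 65.5 TPM in adult TOM+ cDC2. The 6 young libraries overlapped with each other and all lay above the 3 adult ones. Ccl6 was 2.45-fold higher in young TOM+ cDC2 than in adult cells (log2 fold change 1.29, SE 0.139, adjusted p = 1.8e-05) and 2.52-fold higher in young TOM- DC2 (log2 fold change 1.33, SE 0.139, adjusted p = 2.0e-05). The young groups differed by -0.04, with a 95% interval of -0.33 to 0.25.

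Ccl9 was measured at 32.6, 44.6 and 46.5 TPM in young TOM+ cDC2, at 29.8, 42.02 and 35.8 TPM in young TOM- DC2, and at 25.5, 35.9 and 27.5 TPM in adult TOM+ cDC2. The groups overlapped. Its log2 fold change against adult cells was 0.34 for young TOM+ cDC2 (95% interval -0.08 to 0.76, adjusted p = 0.182) and 0.11 for young TOM- DC2 (95% interval -0.30 to 0.53). With the block, the first of these passed (adjusted p = 0.00737), and it also passed without young TOM+ cDC2 replicate 1 (adjusted p = 0.0369) and without both young libraries numbered 1 (adjusted p = 0.0146).

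**Figure D3:**
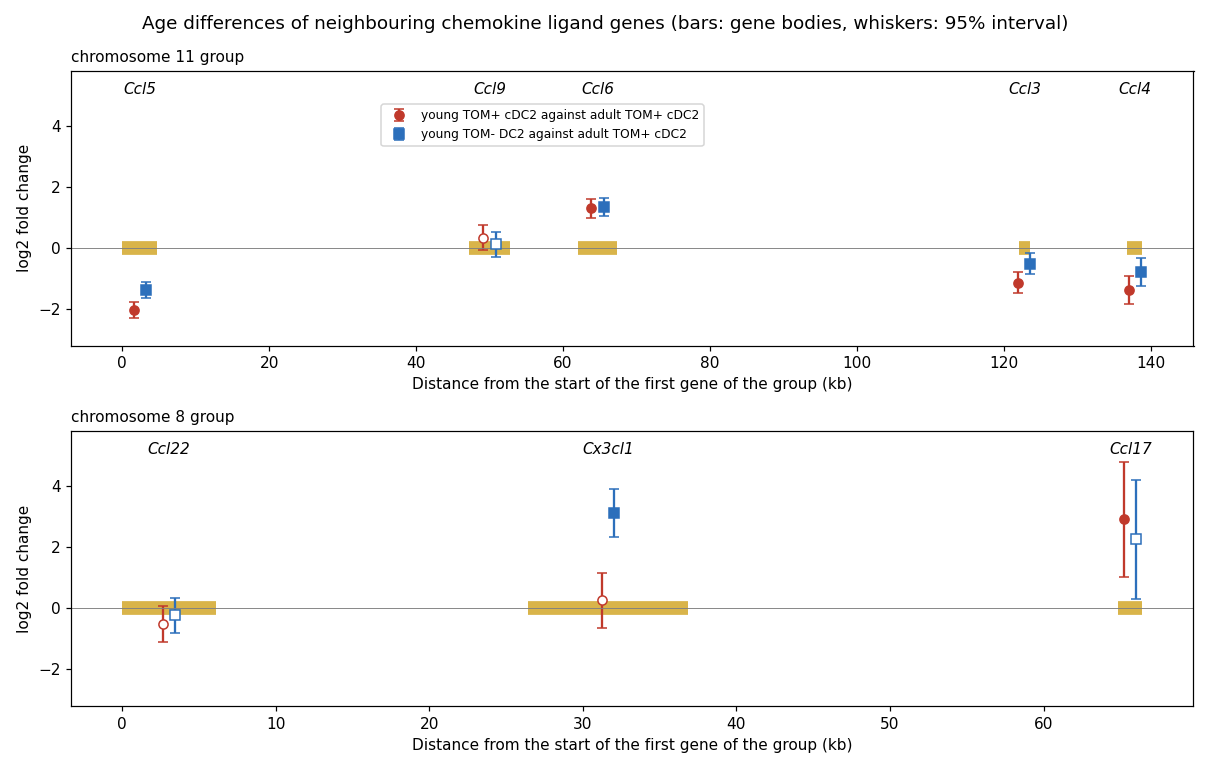
Log2 fold change of young over adult cells (vertical axis, 95% interval as whiskers) for the ligand genes of chromosome 11 and chromosome 8, placed by their distance in kb from the start of the first gene of each group; bars on the zero line are gene bodies, circles are young TOM+ cDC2 and squares young TOM- DC2, and open marks did not pass. On chromosome 11 Ccl6 was higher in young cells while Ccl5, Ccl3 and Ccl4, within the same 138.9 kb, were higher in adult cells.

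Ccl17 and Ccl22, the ligands of CCR4, did not move alike. Ccl22 was at 16.5, 16.3 and 16.3 TPM in young TOM+ cDC2, at 12.3, 27.1 and 21.0 TPM in young TOM- DC2, and at 13.9, 24.3 and 26.4 TPM in adult TOM+ cDC2. The groups overlapped. The log2 fold change was -0.52 for young TOM+ cDC2 against adult (95% interval -1.10 to 0.06, adjusted p = 0.144) and -0.23 for young TOM- DC2 against adult (95% interval -0.80 to 0.35). The former passed without young TOM- DC2 replicate 1 (adjusted p = 0.0450) or without adult replicate 1 (adjusted p = 0.0458).

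Ccl17 was scarce. It had 12, 29 and 39 reads in young TOM+ cDC2 (2.33, 6.01 and 6.26 TPM), 1, 24 and 26 reads in young TOM- DC2 (0.26, 5.42 and 3.9 TPM) and 2, 3 and 2 reads in adult TOM+ cDC2 (0.58, 0.87 and 0.22 TPM). Young TOM+ cDC2 lay above all adult libraries, while young TOM- DC2 replicate 1 fell within the adult range. Over the pooled reads of each group, scaled to library size, the ratio of young TOM+ cDC2 to adult was 7.75 (80 against 7 reads, 95% exact interval 3.59 to 19.9). That of young TOM- DC2 to adult was 5.09 (51 against 7 reads, interval 2.30 to 13.3). These intervals cover counting error only. In edgeR, young TOM+ cDC2 differed from adult cells with an adjusted p of 0.0182, and young TOM- DC2 did not pass (adjusted p = 0.0692, or 0.0137 with the block and 0.0013 without both young libraries numbered 1). Young TOM- DC2 against adults passed in 6 of 20 alternatives, among them DESeq2 and the fit with no filter on low counts. The call for young TOM+ cDC2 was lost without young TOM+ cDC2 replicate 3 (adjusted p = 0.0589), adult replicate 1 (adjusted p = 0.0554) or adult replicate 3 (adjusted p = 0.0702).

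Cxcl9, a chemokine induced by interferon-gamma, was at 3.01, 2.52 and 3.03 TPM in young TOM+ cDC2, at 2.27, 2.61 and 2.46 TPM in young TOM- DC2, and at 12.3, 11.9 and 13.8 TPM in adult TOM+ cDC2. The 6 young libraries overlapped with each other and lay far below the adult ones. In adult cells Cxcl9 was 4.85-fold higher than in young TOM+ cDC2 (log2 fold change -2.28, SE 0.136, adjusted p = 3.3e-07) and 5.76-fold higher than in young TOM- DC2 (log2 fold change -2.53, SE 0.139, adjusted p = 2.3e-07). The young groups differed by 0.25 (95% interval -0.07 to 0.56). Each library held 56 to 385 reads of it.

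Cxcl16, which also serves as a scavenger receptor in its membrane form, was at 117, 127 and 122 TPM in young TOM+ cDC2, at 109.5, 131 and 129 TPM in young TOM- DC2, and at 196, 194 and 315 TPM in adult TOM+ cDC2. All adult libraries lay above the young ones, and adult replicate 3 stood highest. That library also had the highest summed level of 8 markers of mature CCR7+ dendritic cells, 3364 TPM. Cxcl16 was 2.11-fold higher in adult cells than in young TOM+ cDC2 (log2 fold change -1.08, SE 0.160, adjusted p = 0.00021) and 2.10-fold higher than in young TOM- DC2 (log2 fold change -1.07, SE 0.160, adjusted p = 0.000269). Under some alternatives both differences passed but were within 1 on the log2 scale. They were -0.90 and -0.89 in limma on log2(TPM + 1), -0.84 and -0.84 without adult replicate 3, and -0.76 and -0.76 with the block. The block also leaves adult replicate 3 out of these differences. The young groups differed by -0.01 (95% interval -0.35 to 0.34). Zmynd15, which overlaps Cxcl16, had 112 to 275 reads in a library, beside 1922 to 6343 of Cxcl16. The RSEM expected counts of Cxcl16, estimated with its TPM, were 113 to 116% of these tested counts.

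Cx3cl1 (fractalkine), an adhesive ligand for CX3CR1, was the 1 member high in young TOM- DC2 alone. It had 64, 157 and 202 reads there (2.44, 5.3 and 4.67 TPM), 17, 15 and 26 reads in young TOM+ cDC2 (0.50, 0.48 and 0.70 TPM) and 8, 10 and 15 reads in adult TOM+ cDC2 (0.35, 0.44 and 0.50 TPM). Every young TOM- DC2 library lay above all 6 TOM+ libraries, which overlapped between the ages. Cx3cl1 was 7.33-fold higher in young TOM- DC2 than in young TOM+ cDC2 (log2 fold change -2.87, SE 0.333, adjusted p = 0.000448) and 8.75-fold higher than in adult TOM+ cDC2 (log2 fold change 3.13, SE 0.359, adjusted p = 3.8e-05). Young and adult TOM+ cDC2 differed by 0.25 (95% interval -0.65 to 1.16).

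Values of other cell types moved with some of these results. The summed level of 7 macrophage markers (Spic, Vcam1, Adgre1, C1qa, C1qb, C1qc, Cd5l and Mertk were sought, and 7 of the 8 were in the files) was 214 to 266 TPM in young TOM- DC2, 135 to 167 TPM in young TOM+ cDC2 and 91.7 to 135 TPM in adult cells, and none was at 0 in every library of a group. Of the 7, 0 passed in the comparison of the young groups, or 6 with the block, all higher in TOM- DC2. T and NK cell markers summed to 3.24 to 10.3 TPM in young TOM- DC2 and at most 5.59 TPM elsewhere, B cell markers to 70.0 to 80.8 TPM there and 41.1 to 70.7 TPM elsewhere. Their part in the levels of Cx3cl1 and Ccl5 was not tested.

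Markers of mature CCR7+ dendritic cells summed to 549 to 624 TPM in young TOM+ cDC2, 689 to 820 TPM in young TOM- DC2 and 2160 to 3364 TPM in adult cells. Of these 8, 6 differed from adult by more than 1 on the log2 scale and passed in either young group, all higher in adult. The 4 markers of ESAM high cDC2 summed to 209 to 326, 294 to 405 and 654 to 690 TPM in the same order. The groups stood in the same order as for Ccl3, Ccl4 and Ccl5, and the part of these cells in the adult levels of the ligands was not tested. Monocyte markers summed to 264 to 292, 209 to 255 and 179 to 206 TPM. Csf1r, named after its values were seen, made up most of that sum, at 227 to 256, 186 to 228 and 160 to 183 TPM. Of the 7 monocyte markers, 2 passed higher in young TOM+ cDC2 and 1 in young TOM- DC2 than in adults, and 0 passed higher in adults. The part of monocytes in the higher Ccl6 of young cells was not tested either. Markers of cDC1 summed to 202 to 253 TPM and those of pDC to 102 to 164 TPM over all libraries. Most of the first sum was Batf3 (152 to 194 TPM) and most of the second Bst2 (76.7 to 140 TPM), both named after their values were seen. Basophil and mast cell markers stayed at or below 0.53 TPM, with Mcpt8, Fcer1a, Prss34 and Ms4a2 at 0 in all groups.

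Receptors were looked at in the same libraries. Of the 7 receptors of these ligands, 6 could be tested, and Ccr4 had no read in any library. Ccr1 was at 11.3, 12.8 and 8.52 TPM in young TOM+ cDC2, at 11.02, 12.5 and 6.18 TPM in young TOM- DC2 and at 1.59, 2.91 and 3.89 TPM in adult cells. It was higher in young TOM+ cDC2 (log2 fold change 1.83, adjusted p = 0.000463) and in young TOM- DC2 (1.65, adjusted p = 0.00116) than in adults. Ccr1 and its ligand Ccl6 were therefore both higher in young cells, while its ligands Ccl3 and Ccl5 were higher in adult cells. Cxcr3 was at 3.65 to 4.65 TPM in young TOM+ cDC2, 6.27 to 8.38 TPM in young TOM- DC2 and 1.64 to 3.03 TPM in adult cells, and passed higher in young TOM+ cDC2 (0.72, adjusted p = 0.0266) and in young TOM- DC2 (1.52, adjusted p = 0.000261) than in adults. The former did not pass with the block (adjusted p = 0.0604) or without both young libraries numbered 1 (adjusted p = 0.0854). With the block, Cxcr3 was higher in TOM- DC2 than in TOM+ cDC2 of young mice (adjusted p = 0.0111). Cx3cr1 was higher in young TOM+ cDC2 than in adults (0.45, adjusted p = 0.0385), which did not pass without both young libraries numbered 1 (adjusted p = 0.148). It did not pass in young TOM- DC2 (0.19, 95% interval -0.16 to 0.53). Without those libraries 2 in place of 4 receptors passed in young TOM+ cDC2 against adults. Cxcr6 and Ccr3 stayed below 1 TPM.

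Other chemokine ligands were mostly absent or low. Of 27, 19 could be tested. In young TOM+ cDC2 against young TOM- DC2, Ccl7, Ppbp and Xcl1 passed with the block (adjusted p = 0.0396, 0.0328 and 0.0253, all higher in TOM- DC2) and none without it. Cxcl10, which like Cxcl9 binds CXCR3, was at 28.6 to 32.1 TPM in young TOM+ cDC2, 33.7 to 35.5 TPM in young TOM- DC2 and 56.1 to 78.5 TPM in adult cells. It was higher in adults than in young TOM+ cDC2 (log2 fold change -1.24, adjusted p = 9.5e-06) and than in young TOM- DC2 (-1.05, adjusted p = 3.9e-05). Ccl27a was also called higher in adults than in young TOM+ cDC2, from 6 to 8 reads against 1 to 3, and did not pass with the block (adjusted p = 0.0616). It has near-identical copies, so its value is uncertain. Ccl2 passed in that comparison (-0.88, adjusted p = 0.0463), but not without both young libraries numbered 1 (adjusted p = 0.0655). Cxcl1, a neutrophil attractant, was higher than in adults in young TOM+ cDC2 (1.80, adjusted p = 0.0453) and in young TOM- DC2 (2.51, adjusted p = 0.00835), with 2 to 10 reads in adult libraries. Ppbp, Cxcl3 and Ccl1 passed in young TOM- DC2 against adults with 4 to 13, 1 to 7 and 3 to 11 reads, where adult libraries held at most 1. With the block Cxcl3 (adjusted p = 0.0953) and Ccl1 (adjusted p = 0.0656) did not pass, which left 2 in place of 4 genes higher in young TOM- DC2.

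Genes of signalling pathways that act on chemokine genes were counted in the same fit. All 7 NF-kB genes passed higher in adult cells in both age comparisons. Rel was at 141 to 168, 164 to 197 and 279 to 363 TPM (log2 fold change -1.17 and -1.01) and Relb at 191 to 227, 169 to 197 and 439 to 542 TPM (-1.37 and -1.54). Of 10 genes of the interferon-gamma pathway, 6 passed higher in adult cells in each age comparison and none higher in young cells. With the block these were 8 of 10 in each, and 1 passed higher in young cells (Ciita in TOM+ cDC2, Socs1 in TOM- DC2). Gbp2, a GTPase induced by interferon, was at 10.7 to 14.7, 13.8 to 17.6 and 28.9 to 32.4 TPM (log2 fold change -1.35 and -1.17). Irf8 was lower in young TOM+ cDC2 than in adults (-1.10) and than in young TOM- DC2 (-0.77, adjusted p = 0.00275). Of 9 genes of IL-4, TSLP and GM-CSF signalling, which are known to raise Ccl17, 6 and 5 passed higher in adult cells. With the block these were 7 and 7, as Csf2ra joined in both and Irf4 in young TOM- DC2. Csf2rb, the common beta chain, passed higher in young TOM+ cDC2. With the block it also passed higher in young TOM- DC2 (adjusted p = 0.00611), and Csf2rb2 in young TOM+ cDC2 (adjusted p = 0.0112). None of the 9 exceeded 1 on the log2 scale. Of 3 proteases that trim or shed chemokines, Dpp4 passed higher in adults (-0.55 and -0.54), and Adam10 and Adam17, which release CX3CL1 and CXCL16 from the membrane, did not pass.

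**Figure D4:**
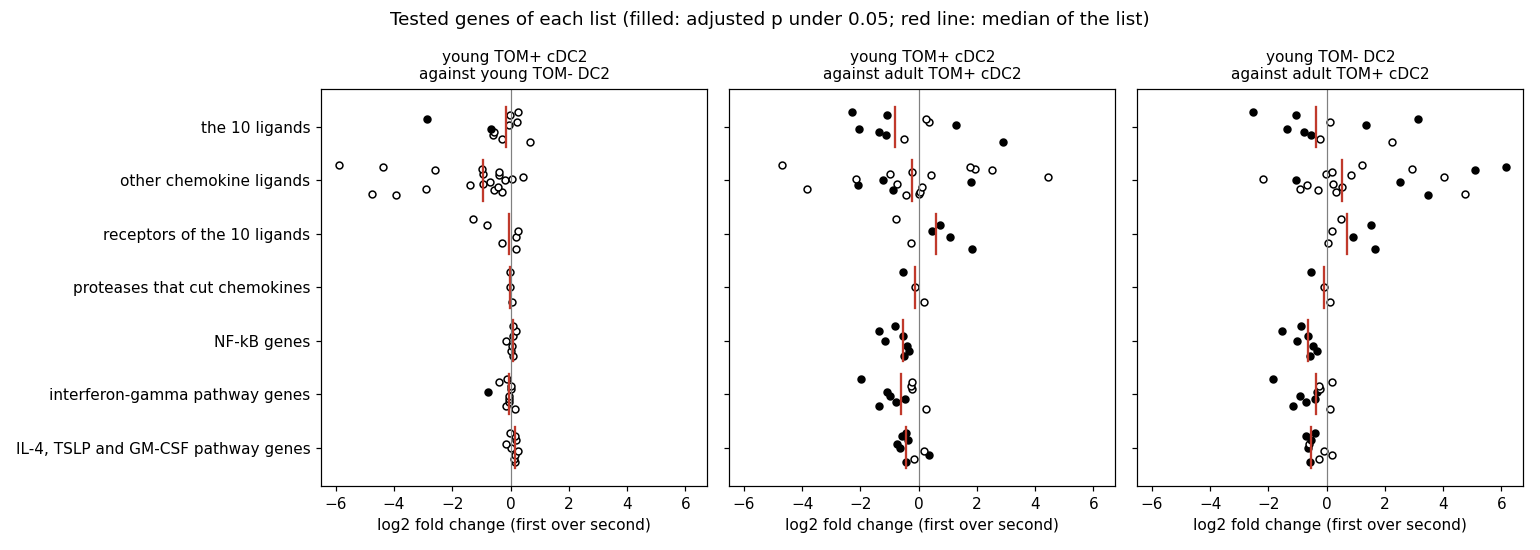
Log2 fold change (first group over second) of every tested gene in the list of 10 ligands and in each of the 6 other lists, by comparison; filled points passed at an adjusted p under 0.05 and the red line is the median of the list. All 7 NF-kB genes lie on the adult side in both age comparisons, and the receptors that passed lie on the young side.

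To show which genes had a pattern close to each ligand, the log2(TPM + 1) values of the 9 libraries were correlated with those of genes averaging 50 or more reads. This is a description over libraries that form 3 groups. Cxcl9 was closest to Tspan13, H2-Ab1 and H2-Aa (Pearson r = 0.994, 0.993 and 0.993), the last of which encode chains of MHC class II. Ccl5 was closest to Dlg2, Hmgn3 and Apol7c (0.994, 0.992 and 0.990), and Ccl6 to Myl6, Lamtor4 and Mrpl27 (0.997, 0.995 and 0.993). For Ccl3 these were Tagap, Zdhhc23 and Slc6a12 (0.973, 0.958 and 0.936) and for Ccl4 Nfkbid, Paf1 and Hmces (0.978, 0.969 and 0.961). Cxcl16 was closest to Mmd, Pxdc1 and Nabp1 (0.989, 0.987 and 0.987), and Cx3cl1 to Rasl11a, Slc28a3 and Il1r1 (0.991, 0.974 and 0.972). Ccl17 and Ccl9 had Rpl27 in common, at 0.956 and 0.949, beside Atox1 (0.9746) and Rfx2 (0.951) for the one and Xcr1 (0.958) and Hepacam2 (0.948) for the other. No gene exceeded 0.881 for Ccl22.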

How the data were processed

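RNA of 9 sorted samples was amplified with SMART-seq v4, which keeps no strand, and sequenced as single 50-base reads. The authors aligned reads with STAR to mm10 and deposited gene counts, and estimated RSEM expected counts and TPM on RefSeq transcripts; versions are not given in the sources used here. The unstranded count column was tested; the stranded columns and FPKM were not used. Between 26.1 and 31.6% of reads had no gene assigned and were left out. The test was the quasi-likelihood test of edgeR 4.0.16 (R 4.3.3, TMM) over all 9 libraries and the 14452 genes averaging at least 1 read, with Benjamini-Hochberg adjustment over them. A gene passed at an adjusted p under 0.05, and was called when its log2 fold change also exceeded 1. Levels are TPM. Alternatives used DESeq2 1.42.0, limma 3.58.1 on log2(TPM + 1) or log2(TPM + 0.1), rounded expected counts, other filters and scaling, the 2 groups compared alone, a replicate block and leaving out libraries. Young libraries with the same number in their deposited names deviated from their group means together (r = 0.746, 0.501 and 0.517 over 10112 genes, and -0.517 to 0.163 for other pairs), so the number was taken to pair them. The main test did not use these pairs, which entered only the fit with the block. The block used this number in all 9 libraries. It thus also joined adult replicates 1 and 2 to young replicates 2 and 3, a pairing that was not checked. Adult replicate 3 was alone in its number and carried no weight in the age comparisons with the block. No libraries were copies (chi-square per gene at least 8.74). Nothing says whether replicates were separate litters, so p-values measure the spread between these samples. The ligands and gene lists were chosen with earlier results of these data known. All 10 ligands are named, with called genes of the other lists (up to 5 by size per list and comparison) and the 3 genes most like each ligand, except some called genes that are not reported here; Ccl2, Cx3cr1, Dpp4, Csf2rb, Zmynd15, Ccl7, Xcl1, Ciita, Socs1, Csf2ra, Csf2rb2, Irf4 and Cxcl2 were named after their values were seen. Promoter sequences and gene positions came from RefSeq (GRCm38.p6) and GENCODE (GRCm38). The fits were tested on simulated data.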

Additional observations from a re-analysis of the deposited data

Results flagged for a closer look

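For 2 ligands the difference to adult TOM+ cDC2 was not the same in both young groups. The test of this in edgeR is the comparison of young TOM+ cDC2 with young TOM- DC2 itself, and age and TOM label cannot be told apart in the difference between young TOM- DC2 and adult cells. For Ccl5 the log2 fold change against adults was -2.04 in young TOM+ cDC2 and -1.37 in young TOM- DC2, a difference of -0.67 (adjusted p = 0.0109), with TOM- DC2 higher in 3 of 3 numbered pairs; it did not pass without young TOM+ cDC2 replicate 3 (adjusted p = 0.0671) or young TOM- DC2 replicate 2 (adjusted p = 0.0552). For Cx3cl1 the values were 0.25 and 3.13, a difference of -2.87 (adjusted p = 0.000448), with TOM- DC2 higher in 3 of 3 pairs.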

How the results depend on the processing

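Over 20 alternatives (19 planned and 1 added after seeing the data, without both young libraries numbered 1), 556 of 600 values of a ligand in a comparison kept their direction and their side of the threshold, 21 came to pass, 12 no longer passed and 11 changed sign. With the replicate block, 4 in place of 2 ligands passed higher in young TOM- DC2 than in young TOM+ cDC2, beside 627 in place of 213 of the 14452 genes. Without both young libraries numbered 1, 4 ligands passed. DESeq2, the fit with no filter on low counts and the 2 groups alone each gave 3, as Ccl3 joined. Leaving out single libraries gave 1 (without young TOM+ cDC2 replicate 3 or young TOM- DC2 replicate 2) to 4 (without young TOM- DC2 replicate 1). Ligands higher in young TOM+ cDC2 than in adults numbered 1 to 3 when single libraries were left out, and those higher in adults than in young TOM- DC2 numbered 3 (without adult replicate 2) to 5. With the block Ccl3 and Ccl4 came to pass between the young groups. Ccl9 in young TOM+ cDC2 and Ccl17 in young TOM- DC2 came to pass against adults, and no other ligand changed its side of the threshold. Cxcl16 still passed against adults in both young groups but was within 1 on the log2 scale (-0.76 and -0.76), so it was no longer called. Passes against adults with the block rest on adult replicates 1 and 2, joined to young libraries by an unchecked number, and not on adult replicate 3. Values that changed sign never passed. In the young groups' comparison Cxcl16 turned to 0.014 with RSEM counts and 0.0013 with the block, and ranged from -0.12 to 0.069 without single libraries, where Ccl6 ranged from -0.16 to 0.095. In young TOM- DC2 against adults, Ccl9 ranged from -0.045 to 0.29 without single libraries and Ccl22 from -0.50 to 0.039, and Ccl22 was 0.055 with the block and 0.019 without both young libraries numbered 1. The cause was not tested. Across all genes the block raised the calls between the young groups from 170 to 274. Scaling by RLE moved the median of all genes by less than 0.03 on the log2 scale. Depth limits Ccl17 in adults (2 or 3 reads a library) and the low ligands named beside their reads.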

Other observations

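Cxcl2, a neutrophil attractant outside the 10 ligands and named after its values were seen, was the most abundant of the other ligands after Cxcl10. It was at 13.3, 22.9 and 25.0 TPM in young TOM+ cDC2, 16.7, 33.7 and 32.5 TPM in young TOM- DC2 and 32.8, 18.6 and 13.4 TPM in adult TOM+ cDC2. The groups overlapped, and its log2 fold change against adults was -0.22 (95% interval -0.98 to 0.55) in young TOM+ cDC2 and 0.20 (95% interval -0.56 to 0.96) in young TOM- DC2.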
